A study of Mus musculus with 240 samples.

Results

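The genes described here encode the proteins of the cytosolic ribosome. They were taken by name: every gene of the count table called Rpl or Rps with a number, with or without a letter and a further number, and with no pseudogene ending, was a candidate, and a candidate was kept where its mean over the libraries used was at least 1 CPM, its count scaled to a common library total. Of 85 such names 78 passed, out of 55414 genes in the table, and all 78 were among the 14785 genes tested and were counted in every library used. They comprised 42 proteins of the large subunit, 30 of the small subunit and 6 paralogs (Rpl22l1, Rpl7l1, Rps27l, Rps4l, Rps3a2 and Rps3a3). Of the paralogs, Rps4l, Rps3a2 and Rps3a3 carry the name of a gene but stand in the GENCODE annotation as processed pseudogenes. The 7 names left out were Rpl6l (mean 0.712 CPM), Rpl3l (0.326), Rpl32l (0.293), Rpl24 (0.161), Rpl39l (0.0528), Rps12l1 (0.00798) and Rpl10l (0.000274). Rpl6l thus lay just below the limit and Rps10 (1.04 CPM) just above it. Reads that match more than 1 place in the genome equally are not counted. A low value, such as that of Rpl24 or Rps10, therefore need not be the level of the mRNA, which was not tested.

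The cytosolic ribosome is assembled in the nucleolus from ribosomal RNA and one copy of nearly every ribosomal protein, so that these genes are needed in near-equal amounts and are known for moving together. Their mRNAs are short and abundant, begin with a run of pyrimidines at the cap, and are translated under the control of the mTOR pathway, which in neurons also serves the local synthesis of proteins near synapses. Mammalian genomes hold many processed pseudogenes of ribosomal protein genes, which are intronless copies of the mRNA placed elsewhere in the genome.

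The libraries were polyA-selected RNA-seq libraries from 3 brain regions of naïve mice of the 8 founder strains of the Collaborative Cross: WSB/EiJ (WSB), NOD/LtJ (NOD), PWK/PhJ (PWK), 129S1/SvImJ (S129), CAST/EiJ (CAST), A/J (AJ), NZO/HILtJ (NZO) and C57BL/6J (B6). Each strain gave 3 females and 3 males, 48 mice in all, which had received no treatment and were 8 weeks old per the series description. The study's methods give a higher age at euthanasia. From each mouse tissue was punched from CeA, the amygdala's central nucleus, from PrL, the prelimbic part of the cortex, and from NAcc, the core of the nucleus accumbens, and the 144 libraries were sequenced in 3 trays of libraries balanced for strain and sex. Within a region the balance for sex did not hold for B6, where some trays held mice of 1 sex only. One NAcc library of a B6 female was left out, as in the deposited normalized table, so that B6 NAcc had 5 libraries and every other group 6. All strains are inbred, so the spread within a strain is that between mice and dissections of 1 genotype.

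Total counts ran from 14942820 to 33951616 per library (median 24456928). By their striatal markers, the NAcc and PrL labels fitted in all but 6 libraries. The summed level of 8 striatal neuron markers had a median of 4108 CPM in NAcc, 1492 CPM in CeA and 195 CPM in PrL. That of 6 pallial glutamatergic neuron markers had a median of 15.3, 1190 and 2683 CPM. The 6 central amygdala markers did not set CeA (median 940 CPM, range 478 to 1584) apart from NAcc (median 986 CPM, range 422 to 1873), and pallial markers in CeA ranged from 20.1 to 2506 CPM. The 6 libraries with striatal marker levels of another region were the NAcc of PWK mice 24 and 40 and the PrL of PWK mouse 40, B6 mice 25 and 33 and WSB mouse 3. Results that change without them are given so. Pallial markers were not used to pick them. In NAcc the pallial markers ranged from 2.36 to 1391 CPM. The highest such library, of a PWK female, was kept when the 6 were left out. In tissue such as this, fewer cells of a type and less RNA per cell cannot be told apart.

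The counts hold 1 property that bears on these genes more than on most. STAR's gene counts take a read only if it has 1 best place in the genome, and 69 of the 78 genes had at least 1 other annotated gene with at least 95% identity over at least 80% of their coding sequence, 536 such copies in all (Rps4l, Rps3a2 and Rps3a3 have no annotated coding sequence and were not searched). A read that falls on a stretch shared by gene and copy is dropped, and a read of a strain that differs from the B6-derived reference at a base that tells the gene from its copy can be placed on the copy. The strains' own sequences at these bases were not analysed here, and the part of placement in any strain difference was not tested. The gene on which several results turn is Rpl29, which encodes a large-subunit protein also described as a heparin-binding protein. Rpl29 lies on the plus strand at chr9:106429454-106431568, its processed pseudogene Gm8210 at chr1:43189156-43189638 and its processed pseudogene Gm10709 at chr9:7751725-7752204 (GRCm38, GENCODE M21). Its coding sequence of 480 bases differs from Gm8210 at 3 bases (C72A, C300T and T423C, with the base of Rpl29 first and positions counted from the start codon) and from Gm10709 at 4 (G205A, C300T, T423C and G457A). Their stretches from position 52 to 225 and from position 280 to 477 are shown with the differing bases in capitals, because within the coding sequence only these bases tell a read of one from a read of another. The longest run without a difference is 227 bases between Rpl29 and Gm8210 and 204 bases between Rpl29 and Gm10709.
Rpl29, first stretch: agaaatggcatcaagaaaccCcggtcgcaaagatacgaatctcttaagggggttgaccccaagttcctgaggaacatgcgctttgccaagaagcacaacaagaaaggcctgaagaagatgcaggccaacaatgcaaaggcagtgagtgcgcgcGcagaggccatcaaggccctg
Gm8210, first stretch: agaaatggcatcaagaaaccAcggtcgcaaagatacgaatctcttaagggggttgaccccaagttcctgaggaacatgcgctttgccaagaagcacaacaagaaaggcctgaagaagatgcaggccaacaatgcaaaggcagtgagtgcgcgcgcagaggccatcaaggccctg
Gm10709, first stretch: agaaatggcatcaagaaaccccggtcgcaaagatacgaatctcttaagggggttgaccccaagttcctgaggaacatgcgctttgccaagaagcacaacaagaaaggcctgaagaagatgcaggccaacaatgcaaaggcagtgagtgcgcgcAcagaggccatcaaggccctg
Rpl29, second stretch: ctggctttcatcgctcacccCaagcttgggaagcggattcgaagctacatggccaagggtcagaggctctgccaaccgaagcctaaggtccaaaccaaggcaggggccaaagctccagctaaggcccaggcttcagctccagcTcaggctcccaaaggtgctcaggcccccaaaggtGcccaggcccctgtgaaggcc
Gm8210, second stretch: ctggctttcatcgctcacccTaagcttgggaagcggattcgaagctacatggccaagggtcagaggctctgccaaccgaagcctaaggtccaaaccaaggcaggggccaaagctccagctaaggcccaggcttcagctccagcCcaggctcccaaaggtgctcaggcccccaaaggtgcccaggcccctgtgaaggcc
Gm10709, second stretch: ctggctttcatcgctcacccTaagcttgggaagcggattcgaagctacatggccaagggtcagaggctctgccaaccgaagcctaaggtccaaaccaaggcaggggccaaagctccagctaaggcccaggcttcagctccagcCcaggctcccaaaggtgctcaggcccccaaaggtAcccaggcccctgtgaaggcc

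Rpl26, a large-subunit protein known for binding the Trp53 mRNA, gives the same picture. It lies on chr11:68901583-68906989 and its processed pseudogene Gm15772 on chr5:3236431-3236868, both on the plus strand. Over 435 coding bases they differ at C177T and T288C only. Positions 157 to 308 hold both differences, again in capitals.
Rpl26: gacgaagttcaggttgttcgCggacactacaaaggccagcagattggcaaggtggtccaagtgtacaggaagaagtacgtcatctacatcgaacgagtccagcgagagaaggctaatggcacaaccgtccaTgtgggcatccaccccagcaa
Gm15772: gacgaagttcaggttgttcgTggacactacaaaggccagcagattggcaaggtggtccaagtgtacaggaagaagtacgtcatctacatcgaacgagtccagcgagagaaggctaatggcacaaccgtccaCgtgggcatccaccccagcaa

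The first question was how the set as a whole varied over regions and strains. The summed level of the 78 genes was highest in NAcc, with a lowest value of 9907, a median of 12922 and a highest of 17353 CPM over 47 libraries. CeA libraries ranged from 9384 over a median of 11455 to 13970 CPM, and PrL libraries from 8860 over 10812 to 13802 CPM (48 libraries each), so that the ranges of the 3 regions overlapped. Compared within a mouse, the sum was higher in PrL than in NAcc in 3 of 47 mice (median log2 ratio −0.28), higher in CeA than in NAcc in 11 of 47 (−0.16) and higher in CeA than in PrL in 32 of 48 (0.10). The sequencing tray moved the sum by a similar amount: its median in trays 1, 2 and 3 was 11192, 12334 and 11143 CPM in CeA, 12698, 14346 and 12009 CPM in NAcc, and 10486, 11176 and 10308 CPM in PrL. Tray 2 was thus the highest in each region, and tray was a term in every fit below. Resequencing did not move the sum, since the second run of a library stood within −0.0098 and 0.0103 (log2) of the first in the 96 libraries of trays 2 and 3.

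**Figure D1:**
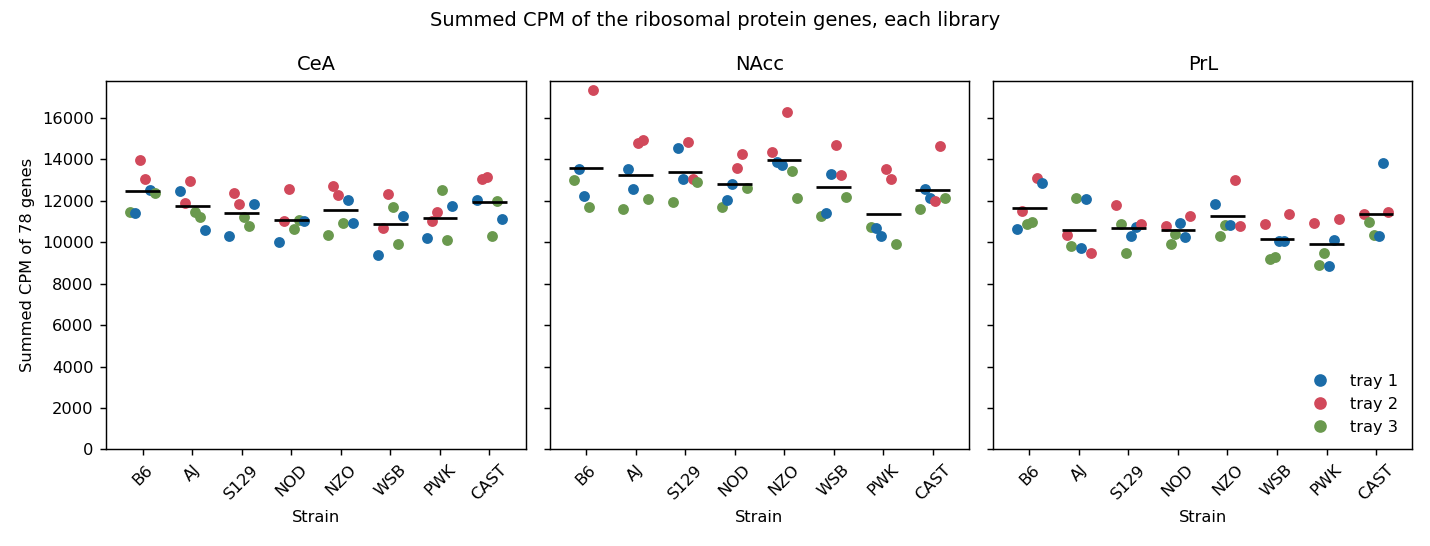
Summed level of the 78 ribosomal protein genes in CPM (vertical axis, from 0) in each library, by strain (horizontal axis) and region (panels), coloured by tray, with bars at the strain means. NAcc libraries reach 17353 CPM, tray 2 points tend to lie at the top of a group, and PWK holds the lowest mean in NAcc (11376 CPM) and in PrL (9895 CPM).

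By strain, the mean sum in NAcc was 11376 ± 1536 CPM in PWK (SD, n = 6) and from 12507 to 13967 CPM in the other strains, with the highest mean in NZO (13967 ± 1348 CPM). In PrL it was 9895 ± 972 CPM in PWK, 10140 ± 863 CPM in WSB and 11654 ± 1058 CPM in B6, and in CeA it ran from 10877 ± 1100 CPM in WSB to 12470 ± 976 CPM in B6. The groups overlapped in each region, and a sum over chosen genes was not tested. The genes moved together from mouse to mouse: with strain, tray and sex removed, the correlation of a gene with the mean of the others had a median of 0.82 over 48 CeA libraries, 0.79 over 47 NAcc libraries and 0.85 over 48 PrL libraries, values that share library, depth and normalization. In CeA, NAcc and PrL 67, 68 and 73 of the 78 genes exceeded 0.5, and the lowest values were those of Rps4l in CeA (−0.26), Rpl7l1 in NAcc (0.07) and Rps10 in PrL (−0.07). The same residual mean moved with the 5 microglia markers in CeA (r = 0.56) and PrL (0.77) but less in NAcc (0.12), and with the 5 endothelium markers in CeA (0.54) and PrL (0.57) but not in NAcc (−0.25). It went against the 6 pallial neuron markers in CeA, NAcc and PrL (−0.31, −0.37 and −0.35), while the striatal markers gave 0.42, 0.05 and 0.13, the astrocyte markers 0.08, −0.04 and 0.42, and the other 4 lists −0.21 to 0.30. The part of these cell types in the shared movement was not tested.

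The region contrasts were fitted to all libraries used, with terms for strain, sex and tray, by limma-voom with Benjamini-Hochberg adjustment over all genes and the 3 contrasts, and all fold changes are given on the log2 scale with their standard error. Ribosomal protein genes were lower in PrL than in NAcc as a group: 71 of the 78 were down-expressed and 1 was up-expressed, against 43.9% of all tested genes down and 38.2% up, with a median change of −0.27 (−0.03 over all tested genes). The small subunit was lower by a median of 0.32, with 29 of 30 genes called, and the large subunit fell by a median of 0.23, with 39 of 42 called lower. In CeA against NAcc 67 were lower and 2 higher (all genes 35.5% lower and 32.7% higher), with a median of −0.16. In CeA against PrL 52 were higher and 3 lower (all genes 38.9% higher and 34.6% lower), with a median of 0.11. The count of higher genes in this last contrast fell to 14 in tray 1 alone, while the other counts of genes lower in PrL or CeA than in NAcc kept at least 33 calls in each tray. The share of all genes called in single trays was not taken.

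The members at the ends of these contrasts were few. Rps12, a small-subunit protein, ranged from 129 over a median of 188 to 244 CPM in NAcc, from 113 over 156 to 227 CPM in CeA and from 98.3 over 123 to 206 CPM in PrL, so that the regions overlapped but kept this order of medians. It was lower in PrL than in NAcc by 0.57 (log2 change −0.57 ± 0.03, limma adjusted p = 8.39e-33) and higher in CeA than in PrL (0.31 ± 0.03, limma adjusted p = 7.37e-15). Rps27, a zinc-finger protein of the small subunit, had medians of 172 CPM in NAcc, 139 CPM in CeA and 121 CPM in PrL and changed by −0.54 ± 0.04 in PrL and −0.35 ± 0.04 in CeA against NAcc. Rps29, another zinc-binding small-subunit protein, and Rpl30 of the large subunit were the next lowest in CeA against NAcc (−0.33 ± 0.03 and −0.31 ± 0.03). Rpl3, which reaches from the outside of the large subunit towards the peptidyl transferase centre, had medians of 438, 398 and 310 CPM in NAcc, CeA and PrL and was the member with the largest CeA to PrL change after Rps4l (0.31 ± 0.02).

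Rpl22 went the other way. This large-subunit protein, which is not essential to the ribosome and binds several RNAs, had medians of 75.8 CPM in NAcc, 79.7 CPM in CeA and 87.3 CPM in PrL. It was the 1 member up-expressed in PrL over NAcc (0.19 ± 0.02, limma adjusted p = 2.33e-14) and the lowest in CeA against PrL (−0.14 ± 0.02). It was, with Rps4l, 1 of the 2 members higher in CeA than in NAcc (0.05 ± 0.02, limma adjusted p = 0.0361), a call that was lost in several settings. Its paralog Rpl22l1 fell by 0.36 ± 0.03 in PrL against NAcc, from a median of 60.3 to 47.9 CPM, and was 53.8 CPM in CeA. The other 2 members lower in CeA than in PrL were Rpl29 (−0.09 ± 0.03, limma adjusted p = 0.00572) and Rps14, a protein of the platform of the small subunit (−0.07 ± 0.03, limma adjusted p = 0.0221). The call of Rps14 was lost with no tray term (limma adjusted p = 0.0568), and both calls were lost in each tray alone.

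Rps4l stood apart from the set in every region contrast. It is a relative of Rps4x, the X-linked gene of a small-subunit protein, and lies at chr6:148354656-148355598 (GRCm38) as a transcribed processed pseudogene. Its level was lowest in PrL (0.577 to 26.3 CPM, median 3.10), intermediate in NAcc (1.08 to 22.3 CPM, median 6.85) and highest in CeA (2.97 to 35.9 CPM, median 13.0). It changed by −0.92 ± 0.10 in PrL against NAcc, by 0.80 ± 0.09 in CeA against NAcc and by 1.73 ± 0.10 in CeA against PrL (limma adjusted p = 4.59e-16, 5.93e-15 and 3.78e-36).

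**Figure D2:**
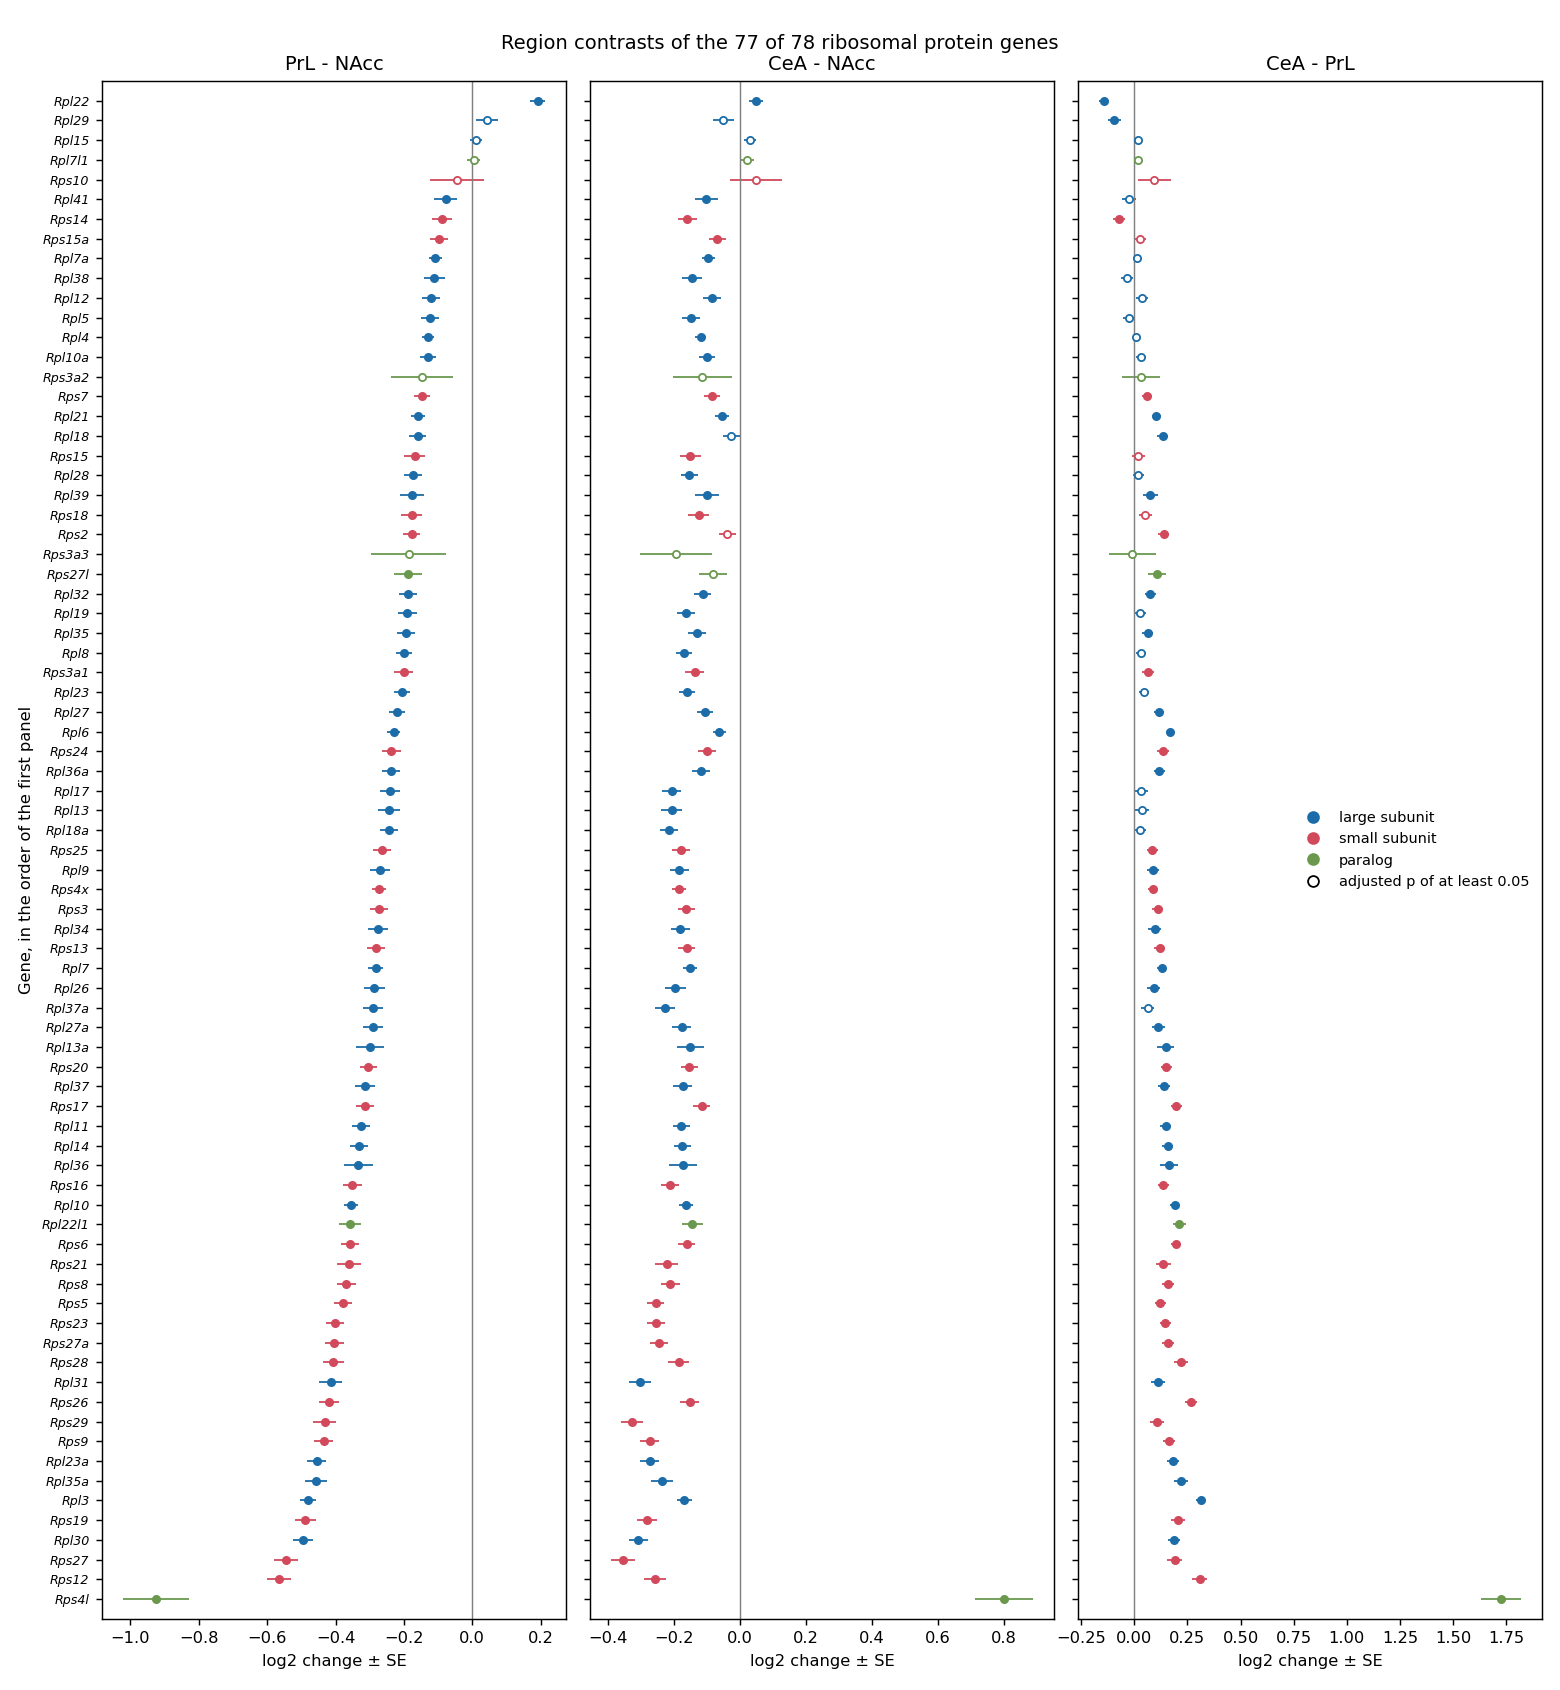
The 3 region contrasts (panels) of 77 of the 78 genes, with the log2 change on the horizontal axis, bars of 1 standard error, open symbols where the adjusted p was at least 0.05, and colours for large subunit, small subunit and paralogs. All but 4 genes lie left of 0 in PrL − NAcc, Rpl22 lies to the right, and Rps4l lies far from the other genes in all 3 panels.

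Genes of related functions were read beside them. Of the 7 tested ribosomal proteins whose names the rule does not take (Rplp0, Rplp1, Rpsa, Fau and others), all 7 were lower in PrL and all 7 lower in CeA than in NAcc, with medians of −0.31 and −0.21, while CeA against PrL gave 3 higher and 1 lower. Mitochondrial ribosomal proteins (77 genes) were split: 30 higher and 23 lower in PrL against NAcc, 26 and 17 in CeA against NAcc, and 23 and 25 in CeA against PrL. Ribosome biogenesis genes (25) gave 9 higher and 12 lower, 7 and 3, and 13 and 6 in the same order. Translation factors (37 tested) gave 15 and 15, 15 and 11, and 16 and 9, and the 14 regulators of ribosomal protein mRNA translation, among them Mtor and Larp1, gave 7 and 5, 6 and 3, and 4 and 6. Cell-type markers moved with the regions as well: the sum of the 5 oligodendrocyte markers had a median of 6529 CPM in NAcc (2572 to 18581), 3079 CPM in CeA (1264 to 18545) and 1803 CPM in PrL (762 to 5621), with all 5 detected in each region, and the sum of the 5 microglia markers had medians of 335, 291 and 270 CPM. Their part in the region contrasts was not tested.

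The second question was how the strains differed. In the test of any difference between the 8 strains, 68 of 78 genes passed in CeA, 67 in NAcc and 69 in PrL, beside 80.8%, 76.0% and 84.1% of all tested genes, so that strain differences were common in this set as they were among genes in general. To see which genes left the set, the level of a gene in a strain was taken relative to the median of the 78 genes in that strain and to the gene's own mean over strains. For 58 genes every such departure in every strain and region was within 0.5 (log2), and the median over genes of the largest departure was 0.31. Departures of at least 1 in the same direction in all 3 regions were found for 7 genes: Rpl29, Rpl26, Rps3a1, Rps3a2, Rps3a3, Rps26 and Rpl12. Since these were picked by their levels, the levels are given as descriptions.

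**Figure D3:**
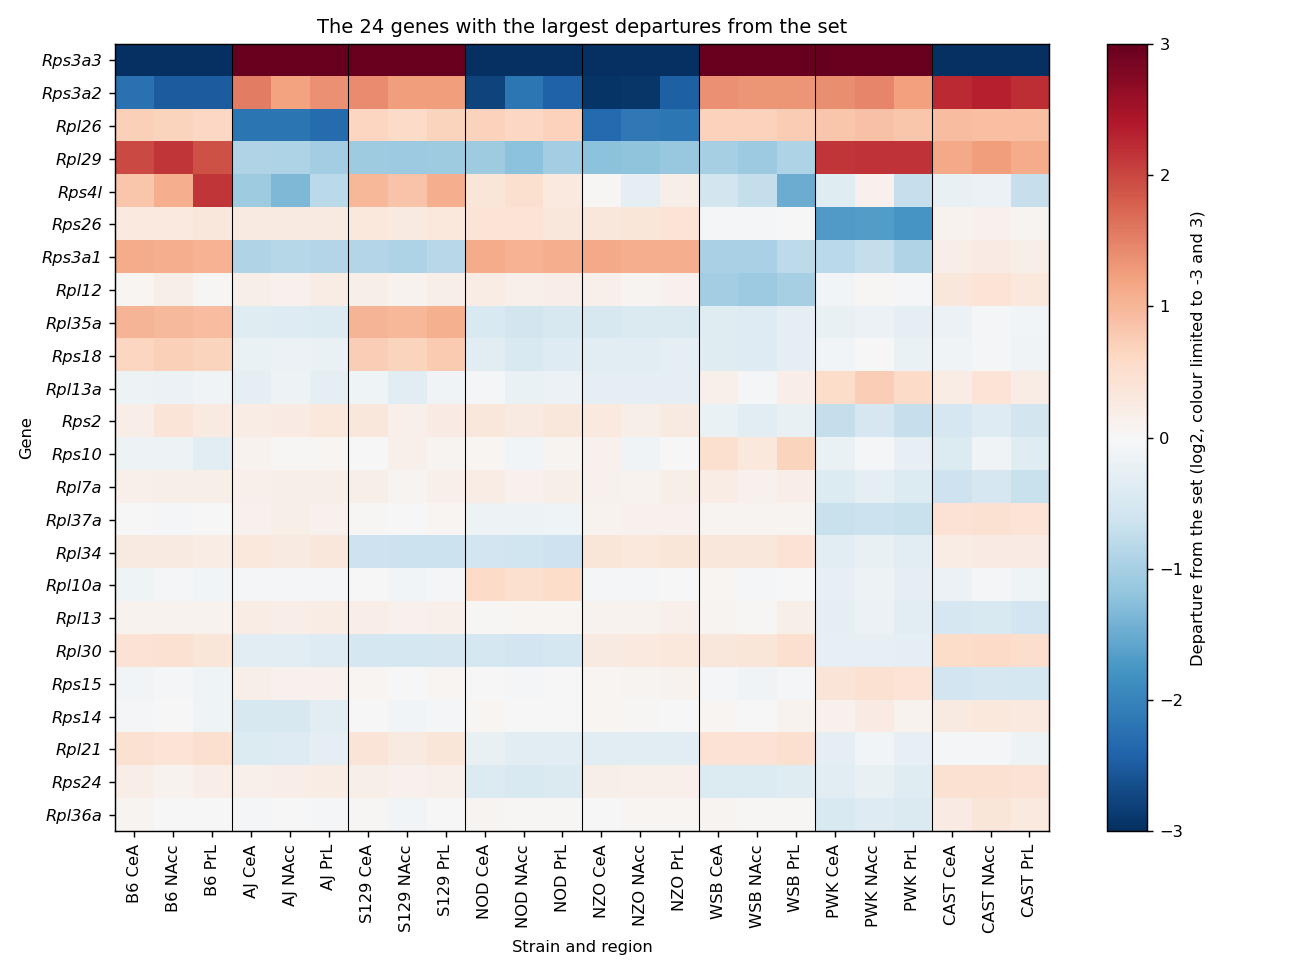
Departure from the set (colour, log2, limited to −3 and 3) of the 24 genes with the largest departures (rows), in the 8 strains and 3 regions (columns). Each strain shows nearly the same colours in its 3 regions, Rpl29 is high in B6, PWK and CAST, Rpl26 is low in AJ and NZO, and Rps26 is low in PWK.

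Rpl29 took 3 levels over the strains. Over all regions it was 128 ± 14.4 CPM in B6 (SD, n = 17 libraries, 105 to 159 CPM) and 125 ± 17.6 CPM in PWK (n = 18, 90.6 to 160 CPM), whose ranges overlapped. CAST had 65.4 ± 7.26 CPM (n = 18, 51.7 to 81.6 CPM), and the other 5 strains had means of 14.0 to 16.3 CPM with single libraries from 9.85 to 20.2 CPM. No library of these 5 strains reached CAST, and no CAST library reached B6 or PWK. The departure from the set was 1.91 to 2.15 in B6, 2.14 to 2.17 in PWK, 1.12 to 1.26 in CAST and below −1 in NOD, NZO and S129. Gm8210 was read almost only in the 5 low strains, with means of 10.3 to 11.9 CPM, against at most 0.0116 CPM in B6, PWK and CAST, and Gm10709 almost only in CAST (55.0 ± 7.38 CPM, elsewhere at most 0.251 CPM). With the reads of all its 27 copies added, Rpl29 came to 131 ± 14.7 CPM in B6, 128 ± 18.1 CPM in PWK and 122 ± 13.2 CPM in CAST, with overlapping ranges. The 5 other strains came to 26.6 to 30.9 CPM, so that CAST joined B6 and PWK while the other 5 stayed apart, and the ratio of highest to lowest strain mean went from 9.17 to 4.93. Reads that matched gene and copy equally are not in these sums, and their number was not measured here.

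Rpl26 was low in AJ (28.0 ± 5.97 CPM, n = 18) and NZO (28.7 ± 5.53 CPM, n = 18) and between 200 and 225 CPM in the means of the other 6 strains, with no overlap between the 2 groups of libraries (at most 40.4 CPM against at least 159 CPM). Its pseudogene Gm15772 was 131 ± 17.9 CPM in AJ and 131 ± 20.7 CPM in NZO, 12.1 ± 1.62 CPM in CAST and at most 1.51 CPM in the means of the rest. Gene and copies together gave 160 ± 23.4 CPM in AJ, 161 ± 25.5 CPM in NZO and 202 to 244 CPM elsewhere, and the ratio of highest to lowest strain fell from 8.03 to 1.52.

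Rps3a1 and its copies Rps3a3 and Rps3a2 exchanged levels between strains in the same way. Rps3a1, which encodes a small-subunit protein at the mRNA exit side, had means of 252, 244 and 256 CPM in B6, NOD and NZO, 126 CPM in CAST and 59.0 to 64.8 CPM in AJ, S129, WSB and PWK. Rps3a3 (chr13:108670603-108671397) had means of 70.0 to 78.4 CPM in AJ, S129, WSB and PWK and 0.544 to 0.624 CPM in the others, the widest contrast of the set. Rps3a2 (chr14:88123017-88123808) was highest in CAST (18.1 ± 1.82 CPM), stood at 9.38 to 10.6 CPM in AJ, S129, WSB and PWK, and at 0.606 to 0.801 CPM in B6, NOD and NZO. The coding sequence of Rps3a1 (792 bases) differs from Rps3a3 at 9 bases and from Rps3a2 at 4. With all copies added Rps3a1 still differed, at 247 to 259 CPM in B6, NOD and NZO against 140 to 155 CPM in the 5 other strains, and the ratio of highest to lowest strain went from 4.35 to 1.86.

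Rps26, a small-subunit protein beside the mRNA exit channel whose human gene is mutated in Diamond-Blackfan anemia, was low in PWK at 20.3 ± 4.00 CPM (n = 18, 13.0 to 28.1 CPM), with no overlap with any other strain, whose means were 69.0 to 97.6 CPM and whose lowest library had 45.2 CPM. The copy Rps26-ps1, which differs at C30T and G270A over 345 coding bases, was 45.0 ± 8.18 CPM in PWK, 11.3 ± 1.84 CPM in CAST, 10.7 ± 2.58 CPM in WSB and at most 0.561 CPM elsewhere. Together they gave 65.5 ± 12.1 CPM in PWK and 79.8 to 98.2 CPM in the other strains. Rpl12, a protein of the base of the large-subunit stalk, was low in WSB at 74.6 ± 9.72 CPM (61.7 to 95.3 CPM) and 177 to 194 CPM in the means of 6 other strains, with PWK between them (121 to 181 CPM). Its copies Gm11425 and Gm9396 were 29.4 ± 4.63 and 14.9 ± 2.23 CPM in WSB and lower in every other strain, with means of at most 6.89 and 0.658 CPM. Rpl12 with its copies was 119 ± 16.0 CPM in WSB and 152 to 196 CPM elsewhere.

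Other members showed strain levels with smaller departures. Rps18, a protein of the head of the small subunit, had means of 153 and 158 CPM in B6 and S129 and 70.3 to 83.5 CPM in the others, where its copy Rps18-ps6 had 18.8 to 23.0 CPM against at most 0.0967 CPM in B6 and S129. Gene and copies gave 154 and 159 CPM in B6 and S129 and 90.3 to 108 CPM elsewhere. Rpl35a, a large-subunit protein, was 109 ± 18.4 CPM in B6 and 112 ± 19.5 CPM in S129 and 37.9 to 47.0 CPM in the means of the other strains, and here the copies changed little (111 and 114 CPM against 40.5 to 49.7 CPM with copies). Rpl37a was 73.0 ± 11.7 CPM in PWK and 114 to 159 CPM in the means of the other strains, with copies summing to a mean of only 0.252 CPM. Over the set, 28 genes had a highest strain mean more than 1.5 times the lowest, and 14 more than 2 times. With copies added, and Rps3a2 and Rps3a3 counted within Rps3a1, 19 and 4 did, the 4 being Rpl29, Rpl35a, Rpl37a and Rps4l, of which Rps4l was not searched for copies.

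**Figure D4:**
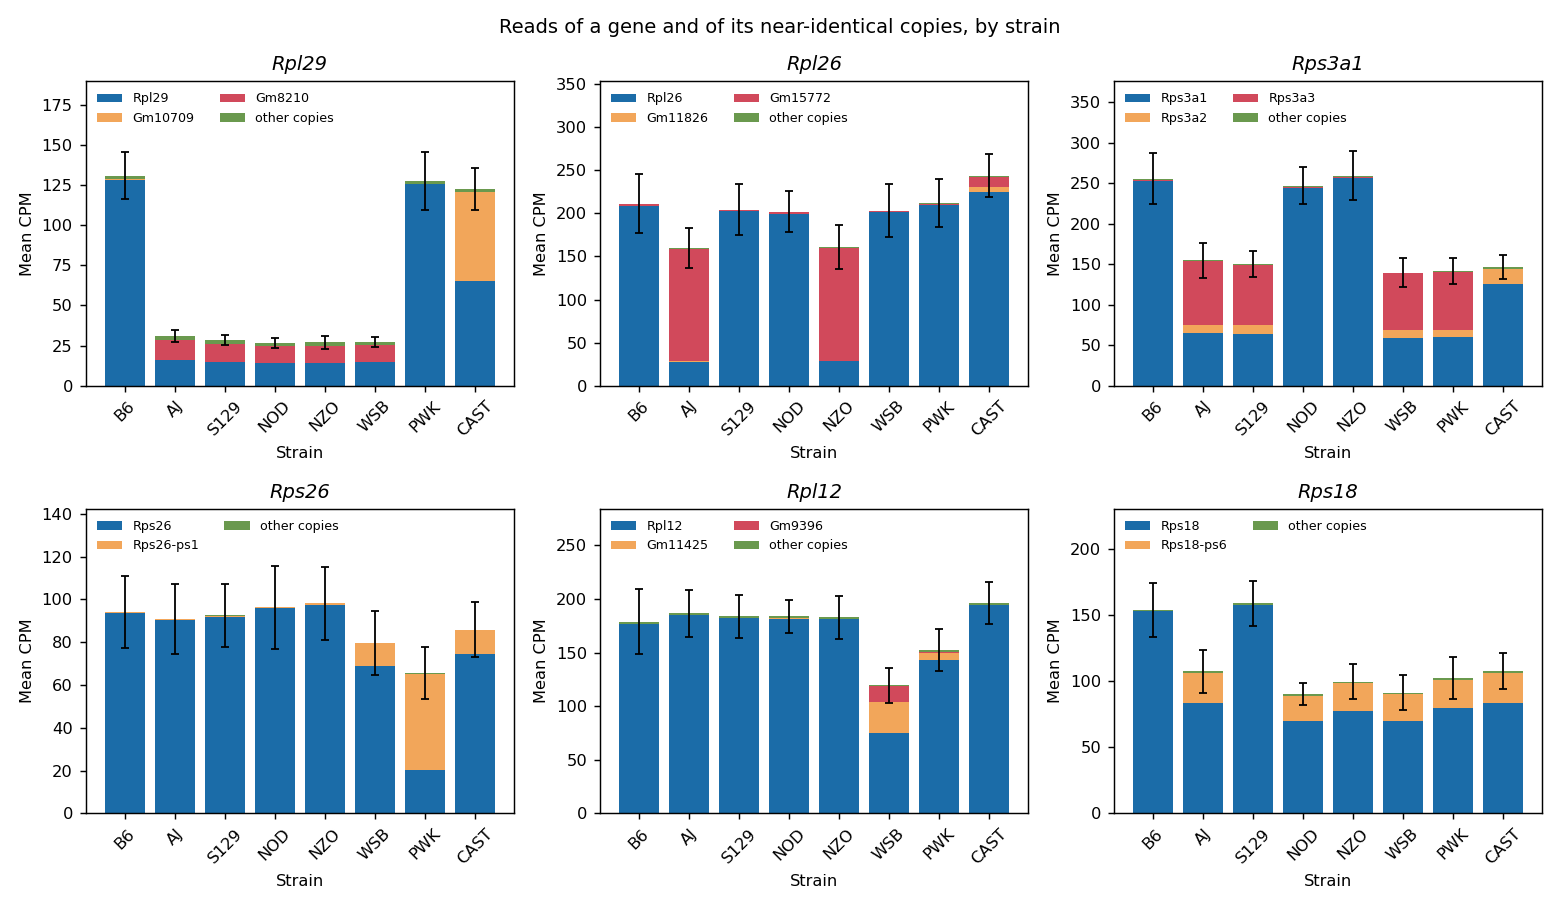
Mean level in CPM (vertical axis, from 0) by strain of 6 genes and of their near-identical copies, stacked, with error bars of 1 SD of the total over 17 or 18 libraries. For Rpl26 and Rps26 the stacked copies bring the low strains near the others, and for Rpl29 they do so in CAST but not in AJ, S129, NOD, NZO and WSB.

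The study set each of its strains of high ethanol preference, B6 and PWK, against the mean of the 6 strains of low preference (Low_Average: AJ, CAST, NOD, NZO, S129 and WSB), separately in each region, in a model that also held sex and tray. The comparisons share the Low_Average libraries. In B6 the called members were mostly up-expressed: 24 higher and 2 lower in CeA (22.3% and 18.8% of all genes), 16 higher and 7 lower in NAcc (17.3% and 14.9%) and 26 higher and 2 lower in PrL (18.2% and 19.3%). The median change of the 78 genes was small, at 0.05, −0.00 and 0.02 (0.01, 0.01 and −0.00 over all tested genes). In CeA 54 of the 78 fitted changes were higher (7578 of all 14785 genes), in NAcc 39 (7630) and in PrL 50 (7286). In trays 1, 2 and 3 alone the numbers were 56, 62 and 43 in CeA, 28, 73 and 30 in NAcc and 69, 45 and 44 in PrL. Tray 2 held only 1 library of B6 NAcc, that of mouse 41, so that tray and mouse cannot be told apart in the 73. B6 had females only in tray 1 of PrL and tray 3 of CeA. It had males only in tray 2 of PrL, tray 1 of CeA and tray 3 of NAcc. In these numbers the sex of the B6 mice and the tray cannot be told apart. In PrL 17 were called higher and 4 lower without the 6 libraries picked by striatal markers, of which B6 mice 25 and 33 are PrL. Of the fitted changes in PrL 38 were then higher and 40 lower, with a median of −0.0065. With no filter on low counts, 41 of the fitted changes in CeA were higher and 37 lower, with a median of 0.0066. The 5 B6 libraries of NAcc had summed levels of 11720, 12253, 13013, 13521 and 17353 CPM, the last being mouse 41 and the highest of all libraries. The 7 lower calls in NAcc rested on single mice, with 17 without mouse 41, 3 without mouse 25 and 4 without mouse 33.

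In all 3 regions 15 members were higher and 2 lower in B6 (6.06% and 4.83% of all genes). With copies added, 11 of the 15 were still called higher in all 3, and the 2 lower, being copies themselves, have no value. Rpl29 led, with 2.76 ± 0.07 in CeA, 2.88 ± 0.08 in NAcc and 2.69 ± 0.06 in PrL (limma adjusted p = 1.35e-29, 3.87e-29 and 4.25e-34), a change that came to 1.85, 1.97 and 1.82 with copies added. Rps4l followed (0.99 ± 0.18, 1.29 ± 0.21 and 2.47 ± 0.16), with B6 levels of 18.5 to 34.0 CPM in CeA and 10.1 to 26.3 CPM in PrL, where the highest library of any other strain had 8.51 CPM. Outside PrL S129 was at a similar level, with means of 26.1 and 14.5 CPM in CeA and NAcc against 23.9 and 15.5 CPM in B6. Rps3a1 was higher by 1.25 ± 0.05, 1.17 ± 0.06 and 1.16 ± 0.06, and by 0.60, 0.52 and 0.52 with copies added. The lower members were its copies Rps3a3 (−3.70 ± 0.25, −3.54 ± 0.23 and −3.79 ± 0.30) and Rps3a2 (−2.34 ± 0.20, −2.62 ± 0.23 and −2.59 ± 0.17). The other higher members were Rpl35a (mean over regions 1.16), Rpl26 (0.99), Rps18 (0.84), Rpl21 (0.56), Rpl30 (0.51), Rpl3 (0.48), Rpl34 (0.32), Rps2 (0.29), Rpl5 (0.23), Rpl7a (0.21), Rps4x (0.16) and Rps7 (0.15). With copies added Rpl26 came to 0.19, 0.12 and 0.12 and was no longer called in NAcc and PrL (limma adjusted p = 0.0911 and 0.0615), Rps2 (0.07) and Rps7 (0.05) were called in no region, and Rps4x (0.14) in 2, while Rpl35a (1.12) and Rps18 (0.54) were called in all 3. Markers of other cells differed too: the summed oligodendrocyte markers in CeA had a median of 8484 CPM in B6 (5765 to 18545) and 2670 CPM in the low-preference strains (1264 to 14620), and the summed endothelium markers 210 CPM (184 to 239) and 148 CPM (100 to 215). Striatal markers had medians of 2742 CPM in B6 and 1302 CPM in the low-preference strains in CeA and of 6504 and 3919 CPM in NAcc, and pallial markers of 549 and 1413 CPM in CeA. Their part in these changes was not tested.

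In PWK more members were called lower than higher in each region. The counts were 15 higher and 23 lower in CeA (20.1% and 19.1% of all genes), 7 higher and 50 lower in NAcc (20.0% and 18.7%) and 7 higher and 34 lower in PrL (23.9% and 23.2%), with median changes of 0.01, −0.16 and −0.10 over the 78 genes and of 0.01 in each region over all tested genes. Of the 78 fitted changes 41 were higher in CeA, 14 in NAcc and 24 in PrL (7590, 7678 and 7589 of all 14785 genes). In trays 1, 2 and 3 alone these numbers were 43, 24 and 48 in CeA, 10, 26 and 12 in NAcc and 15, 36 and 15 in PrL. In NAcc the large subunit gave 29 lower of 42 and the small subunit 19 lower of 30. The count of 50 was 40 without the 6 libraries picked by striatal markers, of which PWK mice 24 and 40 are NAcc. It was 48 with copies added, 33 with no tray term, and 26, 7 and 22 in trays 1, 2 and 3 alone. The share of all genes called was not taken in these settings, so that fewer calls in general cannot be told apart from a change in the members. Mitochondrial ribosomal proteins in the same contrast gave 12 higher and 18 lower of 77, translation factors 3 and 9 of 37, biogenesis genes 6 and 3 of 25, the regulators 2 and 2 of 14, and the ribosomal proteins outside the name rule 0 and 4 of 7. The summed oligodendrocyte markers in NAcc had a median of 4783 CPM in PWK (2572 to 6412) and 6615 CPM in the low-preference strains (2734 to 18581), and the summed microglia markers 305 CPM (229 to 345) and 334 CPM (237 to 625). The central amygdala markers were lower too (708 and 1035 CPM), and the astrocyte markers were higher (1494 and 1206 CPM). Their part was not tested.

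In all 3 regions 7 members were higher and 23 lower in PWK (11.1% and 11.2% of all genes). With copies added, 15 of the 23 were still called lower in all 3, as were 4 of the 5 higher members that keep a value. Rps3a3 (3.52 ± 0.10 in CeA, 3.35 ± 0.09 in NAcc and 3.43 ± 0.12 in PrL), Rpl29 (2.82 ± 0.07, 2.60 ± 0.07 and 2.75 ± 0.06) and Rps3a2 (1.24 ± 0.11, 1.00 ± 0.10 and 0.93 ± 0.08) rose most. On their own reads, Rps26 fell most (−1.95 ± 0.06, −2.20 ± 0.06 and −2.10 ± 0.10, limma adjusted p = 1.53e-26, 7.20e-29 and 1.17e-21). Rps3a1 (−0.77 ± 0.05, −0.94 ± 0.05 and −0.97 ± 0.06) and Rpl37a, a zinc-binding large-subunit protein (−0.77 ± 0.06, −1.05 ± 0.05 and −0.86 ± 0.06), followed. With copies added Rps26 changed by −0.39, −0.55 and −0.44 and Rps3a1 by −0.24, −0.37 and −0.33, while Rpl37a stayed at −0.77, −1.04 and −0.85, so that Rpl37a and Rps2 (mean over regions −0.89 and −0.85) were then lowest. Rpl29 was 1.91, 1.70 and 1.88. Of the other lower members, Rps2 (mean over regions −0.83), Rpl36a (−0.63), Rps19 (−0.62), Rpl14 (−0.53), Rpl7a (−0.53) and Rpl22l1 (−0.51) had the largest changes. Rps2, a protein near the mRNA entry channel, was 112 ± 10.6 CPM in PWK, 130 ± 16.5 CPM in CAST, 155 ± 16.3 CPM in WSB and 233 to 242 CPM in the means of the other strains. With its copies added it was 128 ± 12.1 CPM in PWK, 206 ± 24.6 CPM in CAST and 248 ± 23.5 CPM in WSB, beside means of 235 to 243 CPM in the other strains.

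**Figure D5:**
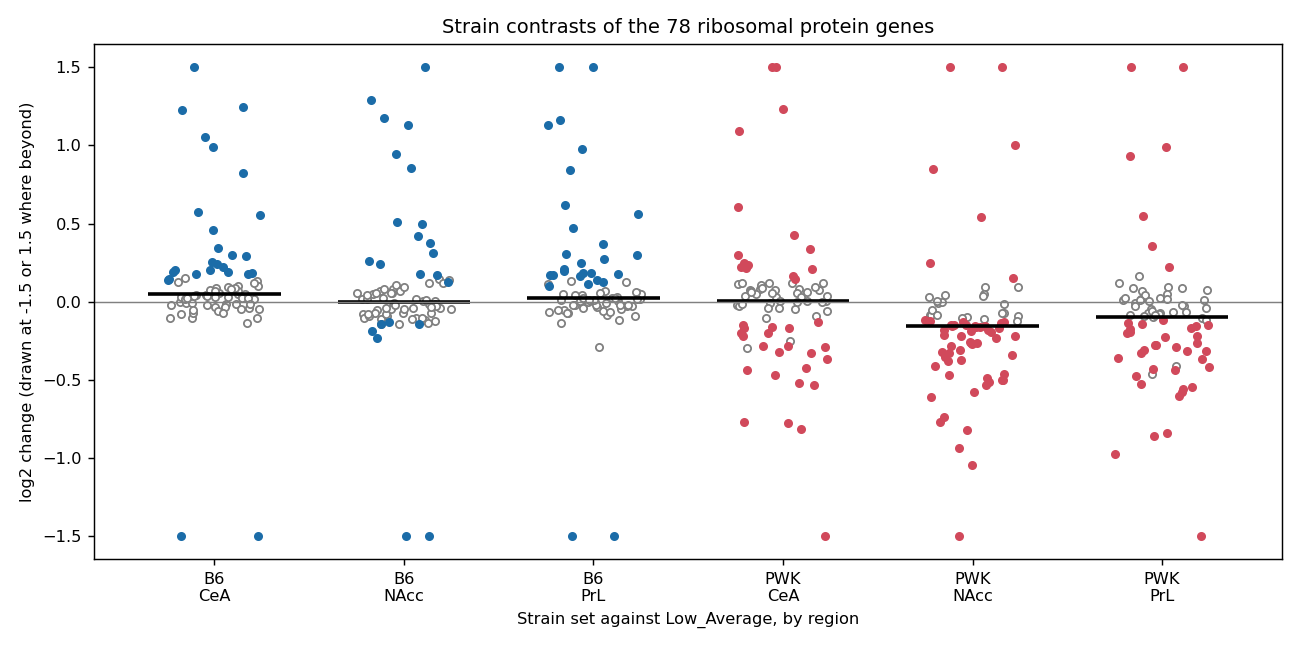
Log2 change of each of the 78 genes (points, drawn at −1.5 or 1.5 where beyond) in B6 and in PWK against the 6 low-preference strains, by region, filled where the adjusted p was below 0.05, with bars at the medians. The B6 medians are 0.05, −0.00 and 0.02, and the PWK medians 0.01, −0.16 and −0.10, in CeA, NAcc and PrL.

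A unique DEG of a strain, in the study's sense, differs in 1 direction from each of the 7 other strains at an adjusted p below 0.05, with the 28 pairs of strains adjusted together. PWK had 9 unique DEGs among the members in CeA, 11 in NAcc and 11 in PrL (5.61%, 6.31% and 9.02% of all genes), and CAST had 9, 7 and 15 (6.26%, 6.29% and 9.99%). The other 6 strains together had 5, 4 and 7 (8.65%, 6.20% and 10.1%). In PWK 8 members were down-expressed against every strain in all 3 regions (1.84% of all genes): Rpl14, Rpl22l1, Rpl36a, Rpl37a, Rpl6, Rps2, Rps26 and Rps3, and the 1 unique higher member was Rpl13a in CeA. The mean change over the 7 pairs was −0.45, −0.61 and −0.56 for Rpl14 and −0.30, −0.46 and −0.37 for Rps3, which lines the mRNA entry channel. In CAST Rps6, the target of S6 kinase (−0.35, −0.56 and −0.37), Rps15 (−0.69, −0.79 and −0.60) and Rpl7a (−0.77, −0.78 and −0.75) were lower and Rps3a2 higher in all 3 regions (1.73% and 1.61% of all genes). In PrL CAST had 12 higher unique DEGs (5.23% of all genes), such as Rpl8 (0.40) and Rpl4 (0.29). Without the PrL library of mouse 36, whose summed level was 13802 CPM against 10307 to 11439 CPM in the other CAST mice, 3 were left: Rpl4, Rpl8 and Rps3a2. AJ had Rps14 lower in all 3 regions (−0.48, −0.49 and −0.37, with 0.129% of all genes), NOD had Rpl10a, a protein of the L1 stalk, higher in all 3 (0.61, 0.61 and 0.66, with 0.0744% of all genes), and WSB had Rpl12 lower in all 3 (−1.25, −1.23 and −1.27, with 0.568% of all genes lower) and none higher (0.386%). Rpl10a was 145 ± 11.9 CPM in NOD (n = 18, 131 to 185 CPM) and 78.0 to 102 CPM in the means of the other strains. B6 had Rpl21 higher in CeA and PrL, Rps4l in PrL and Rpl29 in NAcc only, where it exceeded PWK by 0.28 (limma adjusted p = 0.0242). NZO had none, WSB also had Rps15a lower in CeA and PrL, and S129 had Rps13 lower in PrL. All these calls were made on the genes' own reads. With copies added, the ratio of highest to lowest strain mean fell for Rpl14 (1.53 to 1.28), Rps15 (1.868 to 1.404) and Rpl10a (1.86 to 1.51). It changed little for Rpl37a (2.179 to 2.177), Rpl22l1 (1.49 to 1.47), Rps6 (1.42 to 1.41) and Rps14 (1.531 to 1.532). Rps3a2 is itself a copy of Rps3a1 and has no value with copies.

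Whether the strain differences depended on the region was tested by the interaction of strain and region, which passed for 8 of the 78 genes beside 34.2% of all genes. Calls were thus fewer among the members than among genes in general. Among them were Rpl26, Rpl7l1, Rps13, Rps15a, Rps27l, Rps4l and Rps6. In the fit with the mouse as a replicate block the count was 10, with Rpl28 and Rpl3 added. Rps4l differed in PrL: PrL against NAcc changed by −0.01 in B6 and by −0.55 to −1.62 in the other strains, with B6 at 15.8 CPM in PrL and 15.5 CPM in NAcc. Rps15a was higher in PrL than in NAcc in B6 (0.23) and lower in WSB (−0.30), and Rps27l, a paralog of Rps27 and a known target of p53, was higher in CeA than in NAcc in B6 (0.37) and lower in AJ (−0.24). Rps6 had almost the same level in CeA and NAcc in CAST (0.02) but a lower level in CeA in NZO (−0.32). Rpl7l1, a paralog of Rpl7, moved little in any region contrast over all strains (0.00 ± 0.02, 0.02 ± 0.02 and 0.02 ± 0.02), with 0.12 in B6 and −0.18 in WSB for PrL against NAcc.

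No member passed the test between males and females in any region (0 of 78 in CeA, NAcc and PrL, by limma), where 0.135%, 0.0812% and 0.0947% of all genes did. At an unadjusted p below 0.05 there were 2 members in CeA, 2 in NAcc and 25 in PrL (7.23%, 4.92% and 7.86% of all genes), and the edgeR quasi-likelihood test gave 0, 0 and 0 adjusted calls. In PrL 77 of the 78 fitted changes were higher in males, with a median of 0.07 (−0.00 over all tested genes). As the genes moved together from mouse to mouse (median correlation 0.85 in PrL), the 77 are not separate observations. The summed level of the set had a median of 10853 CPM in 24 males (9263 to 13802) and 10730 CPM in 24 females (8860 to 12859). The highest male value was that of CAST mouse 36, and no sex fit was made without it. The summed oligodendrocyte markers in PrL had a median of 2122 CPM in males (762 to 5621) and 1494 CPM in females (886 to 3845), and the summed microglia markers 274 CPM (209 to 412) and 267 CPM (208 to 337). Their part in the fitted changes was not tested.

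The promoters of the members were read for the run of pyrimidines with which the mRNAs of this class begin, as many of them moved together from mouse to mouse. RefSeq promoters (GRCm38.p6) were found for 56 of the 78 genes. A run of at least 8 bases that were each C or T, on the coding strand only and within the 20 bases centred on the annotated start (10 to either side), stood in 20 of the 56 (35.7%) and in 2354 of 27025 genes with a promoter (8.71%). As examples, 40 bases before and 20 bases from the start are given for Rps27, which differed between regions, at chr3:90213629-90213688 on the minus strand and for Rpl35a, which differed between strains, at chr16:33056442-33056501 on the plus strand, with the run in capitals. A match is a description of these letters and says nothing of their use.
Rps27: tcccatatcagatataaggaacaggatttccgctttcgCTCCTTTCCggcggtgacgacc
Rpl35a: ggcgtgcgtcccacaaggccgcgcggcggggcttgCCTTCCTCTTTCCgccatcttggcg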

How the data were processed

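PolyA-selected, stranded libraries of naïve mice, 8 weeks old per the series description, were sequenced in paired ends on an Illumina NovaSeq. The authors trimmed reads (Trimmomatic), aligned them to the reference genome with the Ensembl GRCm39.105 annotation by STAR 2.7.3a and deposited whole-number counts of uniquely placed read pairs per gene, and separately a table of log2 CPM made by the authors with edgeR 3.38.1 and limma 3.52.2. The table held 240 count columns, since the 96 libraries of trays 2 and 3 were sequenced again. The columns used were those that the normalized table also has, 1 run of each of the 144 libraries (in tray 3 the repeat run) less the B6 NAcc library that the authors left out, and the unused runs served as an alternative. The deposited log2 CPM values were recovered from the counts to within 5e-06.

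Tests used edgeR 4.0.16 (TMM) and limma 3.58.1 (voom, prior count 0.5) in R 4.3.3 over all 14785 genes of the authors' filter, with p-values adjusted by Benjamini-Hochberg over all of them and a threshold of 0.05. Strain models were fitted per region with sex and tray, the 28 pairs of strains being adjusted together, and B6 and PWK against Low_Average adjusted together. Region contrasts and the interaction were fitted to all libraries in 1 model. Levels are CPM with TMM library sizes, compared only within a gene. The tested genes held from 83.7% to 89.8% of a library's counts. Replicates were separate mice. The 3 regions came from the same mice by the labels, and same-mouse deviations correlated (r = 0.28 over 47 mice for PrL and NAcc, 0.40 over 47 for CeA and NAcc, 0.24 over 48 for CeA and PrL), so that a fit with the mouse as replicate block was an alternative. That block used 1 correlation for all genes (0.0077), far below these values, and so did not take up the pairing in this set. The scripts were tested on simulated counts.

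The members and gene lists were chosen with earlier results of these data known. Genes named were Rpl29, members whose departure from the set was at least 1 (log2) in 1 direction in all 3 regions, the 3 higher and 3 lower members with the largest change per region contrast and, for B6 and PWK, over those called in all regions, and the paralogs. Rps18, Rpl35a and the other genes named were chosen after their values were seen. Copies were found with blastn 2.17.0 in GENCODE M21 transcripts (GRCm38), matched by gene identifier only, and promoters are RefSeq's (GRCm38.p6). Alternatives covered normalization, filters, tests (edgeR quasi-likelihood), model terms, runs and single mice left out. Copies added, the 6 libraries or CAST mouse 36 left out and single trays were alternatives chosen after seeing the data. The values of 1 member are not reported here, though it stands in all counts.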

Additional observations from a re-analysis of the deposited data

Results flagged for a closer look

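Each group of 1 strain and region (6 libraries, 5 in B6 NAcc) was tested on the summed level and on Rpl29, which made 48 tests, and in 3 of them a library's gap to its nearest neighbour was large for the range of its group, where chance gives about 1 in 20. The 3 of 48 are near that share. The summed level of B6 NAcc mouse 41 had a gap of 0.680 of its group's range, beside 0.678 and 0.676 in the 2 CAST groups below. It was not flagged in its group of 5. In CAST, 1 male (mouse 36) had the highest summed level of the set in NAcc (14623 CPM, against 11622 to 12587 CPM in the other 5 mice) and in PrL (13802 CPM, against 10307 to 11439 CPM), in libraries of trays 2 and 1. The S129 PrL library of mouse 22 had the lowest Rpl29 level of its group (12.4 CPM, against 15.3 to 16.3 CPM in the other 5).

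For the genes named here the strain differences were not the same in the 3 regions by the interaction of strain and region (limma F test, adjusted p): Rps15a (0.00133), Rps27l (0.00581), Rps4l (0.00700), Rpl7l1 (0.0106), Rps6 (0.0170), Rpl26 (0.0228) and Rps13 (0.0444). Rpl26 was lower in CeA than in NAcc by 0.48 (log2 change −0.48) in NZO and differed by −0.00 in PWK. This is on the gene's own reads, at 24.8 CPM in CeA and 34.6 CPM in NAcc in NZO, where most reads were placed on Gm15772. The interaction of Rpl26 was not read with copies added. Rps13 changed by −0.33 in NZO and by 0.02 in PWK in the same contrast.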

How the results depend on the processing

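Under the alternatives planned, 290 of 305 values of the main comparisons stayed close to the main value. Close means within 1.5 times for a count and within 1 SD for a level. Of 1976 values of single genes, 1919 were called or not called as before. A turn of sign counted as a change only where at least 1 of the 2 values was called. With plain library totals the median summed level was 10162 (CeA), 11333 (NAcc) and 9089 CPM (PrL). With no tray term, B6 had 3 lower in NAcc, PWK 33 lower in NAcc, unique DEGs in NAcc came to 13 and the interaction to 4. With no filter B6 had 4 lower in NAcc. Members higher in CeA than NAcc came to 1 with limits of mean CPM 1 or 5 and with the other run. The replicate block gave 10 interaction calls in place of 8, and no count changed by over 1.5 times with it. Its 1 correlation for all genes was 0.0077, so it was close to the fit with no block. It could thus not show what the pairing within a mouse does to this set. Leaving out B6 NAcc mice in turn, B6 had 14 to 20 higher and 3 to 17 lower in NAcc, and CeA over NAcc gave 1 to 2.

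Of those chosen after seeing the data, copies added gave B6 1 (CeA), 4 (NAcc) and 0 (PrL) lower, PWK 4 higher in NAcc and CeA over NAcc 1. Without the 6 libraries, B6 had 17 higher and 4 lower in PrL and CeA over NAcc gave 1. In trays 1, 2 and 3 alone B6 had 7, 14 and 9 higher in CeA and 14, 12 and 11 in PrL. In NAcc it had 7 and 9 higher and 2 and 2 lower in trays 1 and 3, since tray 2 held a single B6 library there. PWK had 6, 6 and 6 higher in CeA, 4 in NAcc and 4 in PrL (tray 1), and 10 and 6 lower in CeA (trays 1 and 3), 26, 7 and 22 in NAcc, and 9 and 20 in PrL (trays 2 and 3). CeA against NAcc gave 1 higher (tray 2) and 33 lower (tray 3), CeA against PrL 14 higher (tray 1) and 1, 1 and 1 lower, and PrL against NAcc 2 higher (tray 1). Signs turned for Rpl22 in CeA − NAcc (−0.022, tray 2), and for Rps27l (−0.0034) and Rps3a1 (−0.0386) in CeA − PrL (tray 1). Without CAST mouse 36, unique DEGs of any strain came to 17 in NAcc and 23 in PrL, in place of 22 and 30. A single tray holds fewer libraries, and the share of all genes called was not taken for any alternative. The causes were otherwise not tested.

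A level near 1 CPM, such as that of Rps10, rests on few counts, and reads shared equally by a gene and its copies are not in any value.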
